A study of Homo sapiens with 10 samples.

Results

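H460 cells that survived paclitaxel (PR cells, 2 libraries) were set against H460 cells that survived either of 2 DNA-damaging drugs, cisplatin (CR cells, 1 library) and doxorubicin (DR cells, 1 library). These 4 libraries, of 10 in the series, were picked by their labels, with earlier results of these data known, and no parental library enters the comparison. H460 is an established line of human lung cancer cells. Cells had received 5 nM paclitaxel, 4 µM cisplatin or 0.5 µM doxorubicin for 3 days and then fresh medium for 3 days, and the cells that re-attached after plating were taken for poly(A) RNA sequencing. The comparison asks which genes separate survivors of a microtubule drug from survivors of drugs that act on DNA. The 3 parental H460 libraries, which received no drug, are quoted as levels only. The labels do not say that the PR libraries came from separate cultures, and CR and DR differ in drug, so the p-values measure the spread between these 4 libraries, which may be technical in part and which includes the difference between cisplatin and doxorubicin.

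Paclitaxel binds beta-tubulin within the microtubule and stops it from disassembling, so that dividing cells are held in mitosis. Cisplatin forms platinum adducts that link DNA bases, and doxorubicin intercalates into DNA and traps topoisomerase II on broken strands. DNA damage of either kind is known to activate p53, whose targets include the cell cycle inhibitor CDKN1A and the death receptor FAS. Cells that leave the cycle after damage are also known to secrete cytokines and proteases, many of them under control of the transcription factor NF-kappaB.

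Between 59499787 and 89541774 reads were counted on genes per library in the 4 libraries compared, and 19601 of 46427 genes had enough reads to be tested. Genes with at least 10 reads numbered 19524 and 19617 in the PR libraries, 17577 in CR and 19176 in DR. Mitochondrial genes took 8.23% and 10.0% of reads in PR, 7.28% in CR and 7.75% in DR. The epithelial keratins KRT8 and KRT18 were above 190 FPKM (fragments counted per transcript, scaled for its length and for library depth) in each of the 4 libraries, whereas the epithelial adhesion genes EPCAM and CDH1 were below 0.1 FPKM in each and at most 0.114 FPKM in parental cells. In such bulk RNA, fewer cells of a type and less RNA per cell cannot be told apart.

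At an adjusted p under 0.05 in edgeR's quasi-likelihood test, 48 genes (0.245% of those tested) separated PR from CR and DR cells. Higher in PR cells were 44 genes (0.224%), led among those of at least 1 FPKM by the protease inhibitor SERPINB10, the chemokine CCL2, the sterol transporter NPC1L1 and the matrix protease MMP2. Lower in PR cells were 4 genes (0.0204%), namely RTL10, OAS1, CKB and the read-through transcript HOXA10-HOXA9. Of the 48, 32 were protein-coding, 10 were lncRNAs, 3 were pseudogenes and 3 were ribosomal RNA genes. Their adjusted p-values lay between 0.0463 and 0.0473, the next gene was at 0.0512, and 1510 genes were under 0.1, of which 1096 were higher and 414 lower. The count is therefore set by where the threshold falls: DESeq2 called 1013 genes higher and 895 lower on the same counts, and edgeR called 0 without PR 2 and 1 without PR 1.

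A second call used size alone, namely every PR library more than 2-fold from every CR or DR library on the log2(FPKM + 1) scale. It held 52 genes higher in PR cells (0.265% of the genes tested) and 6 lower (0.0306%), and 19 of the 52 and 2 of the 6 also passed the adjusted p. At an unadjusted p under 0.05, 14.9% of all genes tested were higher and 8.85% lower, and the counts for gene lists are read against these shares. Over all 19601 genes the median log2 ratio of PR to CR and DR was 0.07.

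The 2 PR libraries were not alike. The label of PR 1 has another form than those of PR 2, CR and DR, and what that form stands for is not given. A difference tied to the form of label cannot be told apart from one between the PR libraries. They were more than 2-fold apart in 150 genes, against 62 between CR and DR. A PR library and a DNA-damage library were apart in 240 genes (PR 1 and DR), 316 (PR 2 and DR), 376 (PR 1 and CR) and 415 (PR 2 and CR). In each of these 4 pairs most of the genes were higher in the PR library, for example 354 of the 415. Each fold change here is therefore given with the FPKM of every library.

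**Figure D1:**
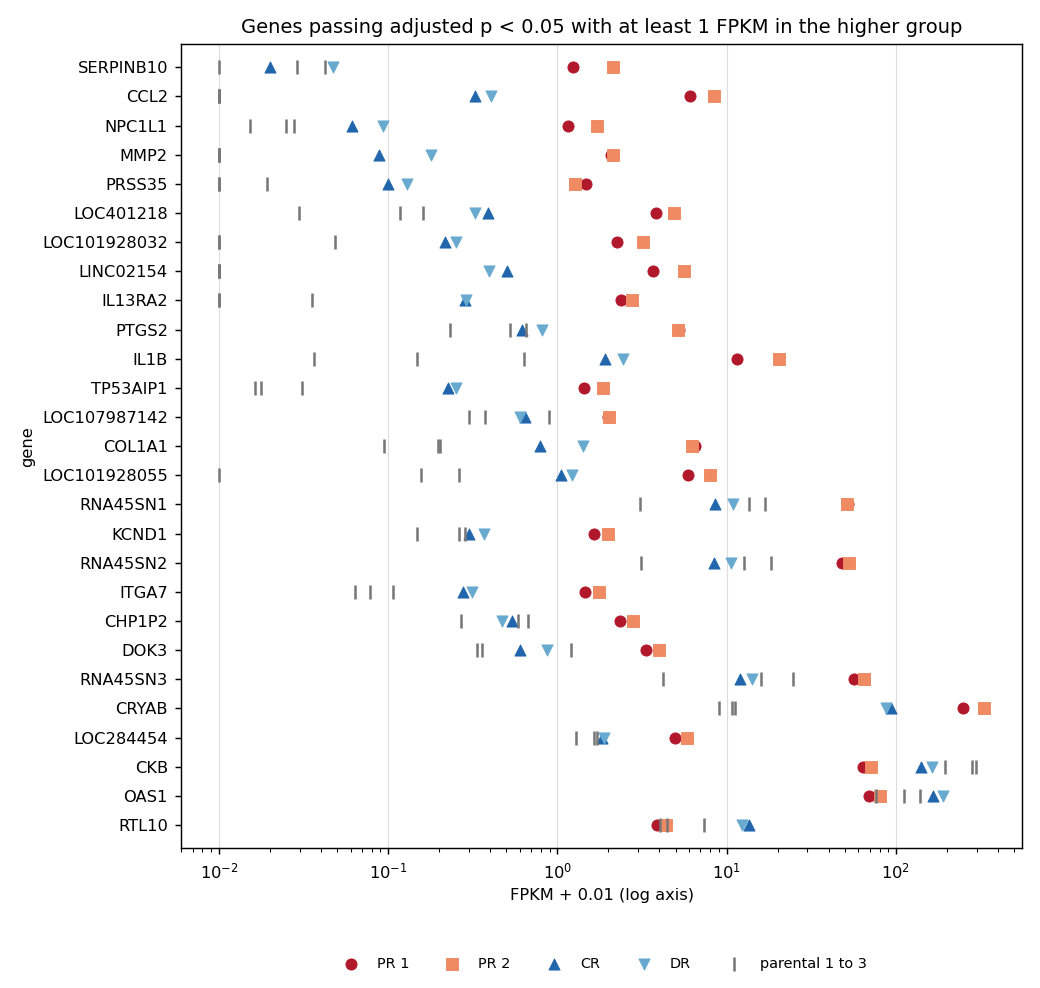
FPKM + 0.01 on a log axis in PR 1, PR 2, CR, DR and the 3 parental libraries, for the 27 called genes with at least 1 FPKM in both libraries of the higher group. The 24 genes at the top have both PR points to the right of CR and DR, and for CKB, OAS1 and RTL10 at the bottom the order is turned.

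Among the called genes were 3 of inflammation. CCL2, the chemokine that draws monocytes, stood at 6.08 and 8.46 FPKM in PR 1 and PR 2, 0.314 in CR and 0.397 in DR, and was listed at 0 in the 3 parental libraries. Its log2 fold change was 4.18 ± 0.32 (SE; adjusted p = 0.0463). IL1B, the secreted cytokine interleukin-1 beta, stood at 11.6 and 20.3 FPKM in PR, 1.90 in CR and 2.43 in DR (log2 fold change 2.72 ± 0.29). PTGS2, the inducible cyclooxygenase of prostaglandin synthesis, stood at 5.19 and 5.18 FPKM in PR, 0.608 in CR and 0.805 in DR (2.73 ± 0.19). The lowest PR library was above the higher of CR and DR for each of these genes, and DR was slightly above CR. CCL2 lies at chr17:34255285-34257203, IL1B at chr2:112829751-112836779 and PTGS2 at chr1:186671791-186680423 (GRCh38).

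Of 34 tested members of the list of NF-kappaB targets, cytokines and chemokines, these 3 were called higher and 0 lower, and 26 were higher at an unadjusted p under 0.05, against 14.9% of all genes. The median log2 fold change of the list was 1.24. By size, 8 members were more than 2-fold apart in all 4 library pairs, namely CCL2, IL1B, PTGS2, IL1A, BIRC3, C3, NFKBIA and NFKBIZ. NFKBIA encodes the inhibitor that holds NF-kappaB in the cytoplasm and is itself an NF-kappaB target, and it stood at 89.7 and 126 FPKM in PR, 34.8 in CR and 38.5 in DR (1.4 ± 0.18, adjusted p = 0.058). BIRC3, an inhibitor of apoptosis in the same pathway, stood at 6.93 and 9.51 FPKM in PR, 1.14 in CR and 2.38 in DR (2.08 ± 0.34, adjusted p = 0.067). IL1A, the alpha form of interleukin-1, stood at 6.63 and 14.8 FPKM in PR, 0.660 in CR and 1.64 in DR, with parental cells between 0.841 and 2.42.

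Some abundant members of the list, the cytokines IL6, CXCL1 and CXCL8 and the inhibitor TNFAIP3, did not separate the drugs. IL6 stood at 423 and 718 FPKM in PR, 482 in CR and 406 in DR, and CXCL1 at 606 and 1175 FPKM in PR, 1109 in CR and 729 in DR. CXCL8, the neutrophil chemokine interleukin-8, stood at 444 and 1009 FPKM in PR, 544 in CR and 349 in DR. TNFAIP3, the feedback inhibitor A20, stood at 104 and 126 FPKM in PR, 119 in CR and 97.2 in DR. In these 4 genes the PR and the DNA-damage libraries overlapped, and the parental libraries were below all of them, at most 180 FPKM for CXCL1. The log2 fold changes were 0.22 ± 0.26 for IL6 and -0.21 ± 0.36 for CXCL1.

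PR 2 was the higher PR library for most of the list. It was above CR and DR in 34 of 34 tested members and PR 1 in 30, and 6 of all 42 members were more than 2-fold higher in PR 2 than in PR 1. For such counts, here and in later lists, the share over all genes tested is not given. Over all genes tested the median difference in log2(FPKM + 1) was 0.079 and 0.056 for PR 1 against CR and DR. For PR 2 it was 0.098 and 0.069. SOD2, the mitochondrial superoxide dismutase, stood at 122 and 395 FPKM in PR 1 and PR 2, 88.0 in CR and 95.3 in DR. Without PR 1 the median log2 fold change of the list was 1.62 and without PR 2 it was 0.92, and 0 members were called in either case.

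**Figure D2:**
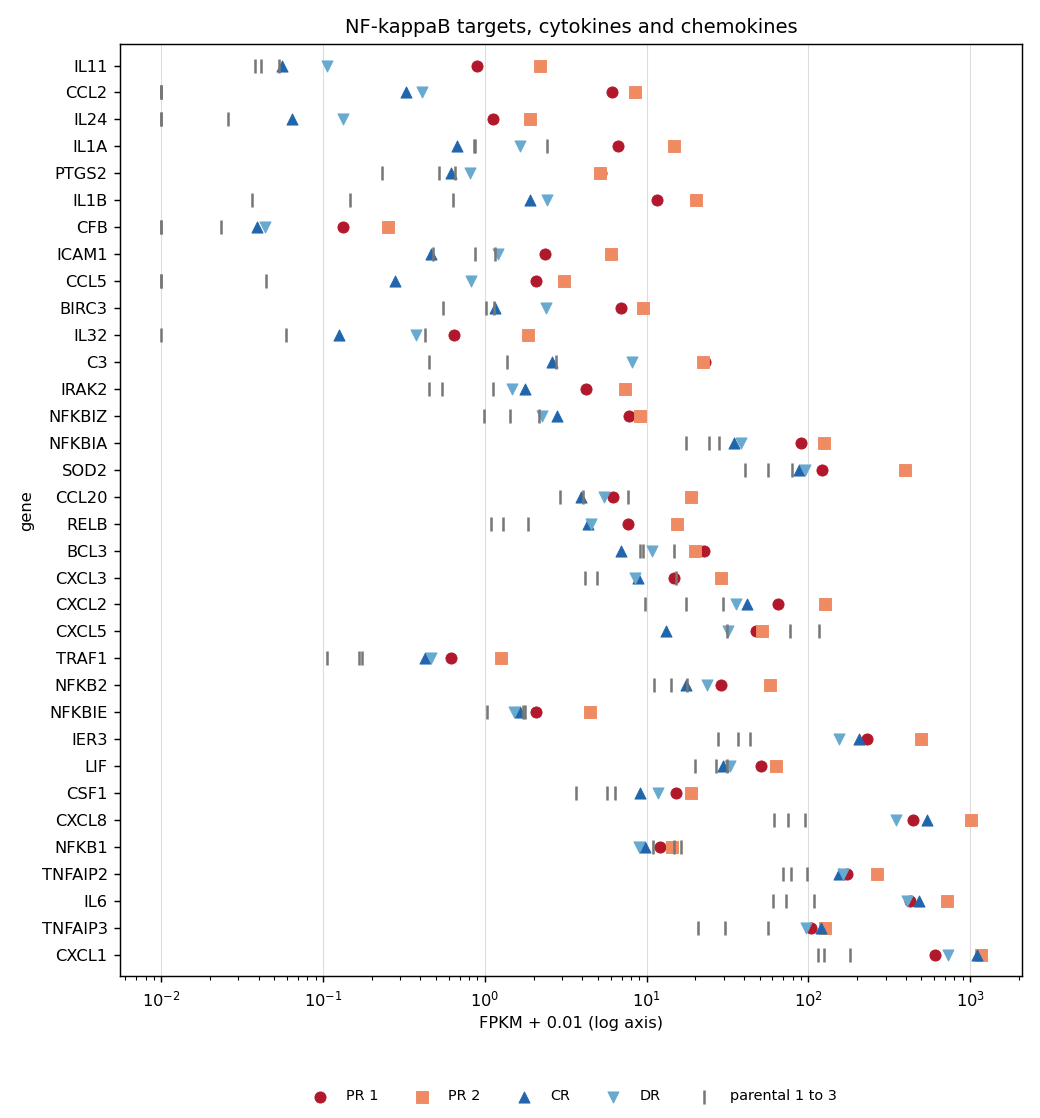
FPKM + 0.01 on a log axis for the 34 tested NF-kappaB targets, cytokines and chemokines, ordered by log2 fold change, with 1 point per library. Both PR points lie to the right of CR and DR for genes such as CCL2, IL1A and PTGS2, while IL6, TNFAIP3 and CXCL1 at the bottom have PR, CR and DR points together, to the right of the parental marks.

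The promoters of the list were searched for the NF-kappaB consensus on both strands, in the 250 bases before the RefSeq start site (GRCh38.p14). Of 26 tested members with a promoter sequence, 13 (50%) held a match, against 2614 of 27305 promoters of all genes (9.57%) and 11.4% of those of tested genes. Matches stood in 9 of the 20 members that were higher at an unadjusted p under 0.05 and in 4 of the other 6, which are too few to compare, and the list was drawn up from known targets, so its share with a match is no result. Of the 6 members apart by size with a promoter sequence, 3 held a match, and these 3 are the ones printed. No match was found for the called genes CCL2, IL1B and PTGS2, but not every member had a promoter sequence to search. Bases farther than 250 from the start site were not searched, so these genes may hold matches elsewhere. To show matches in both kinds of member, 100 bases are printed for 3 members that were apart by size and for 3 that overlapped. They run 5′ to 3′ on the strand of the gene, with the matches in capitals, and matches on opposite strands overlap in CXCL1. The first group is NFKBIA (chr14:35404776-35404875, minus strand), NFKBIZ (chr3:101827740-101827839, plus) and BIRC3 (chr11:102317240-102317339, plus). The second group is IL6 (chr7:22727082-22727181, plus), CXCL1 (chr4:73869269-73869368, plus) and TNFAIP3 (chr6:137867147-137867246, plus).
NFKBIA: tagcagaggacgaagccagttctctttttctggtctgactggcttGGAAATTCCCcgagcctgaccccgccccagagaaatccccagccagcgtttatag
NFKBIZ: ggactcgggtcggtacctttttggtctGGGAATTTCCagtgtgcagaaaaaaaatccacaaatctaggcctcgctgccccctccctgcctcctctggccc
BIRC3: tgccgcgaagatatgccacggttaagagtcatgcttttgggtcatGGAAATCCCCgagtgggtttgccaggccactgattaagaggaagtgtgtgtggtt
IL6: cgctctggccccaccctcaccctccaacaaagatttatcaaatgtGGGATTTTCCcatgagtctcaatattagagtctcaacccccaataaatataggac
CXCL1: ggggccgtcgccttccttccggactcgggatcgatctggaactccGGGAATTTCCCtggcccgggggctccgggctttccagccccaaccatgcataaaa
TNFAIP3: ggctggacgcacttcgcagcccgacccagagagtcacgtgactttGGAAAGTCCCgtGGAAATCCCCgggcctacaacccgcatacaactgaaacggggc

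Called genes of the extracellular matrix and its proteases included MMP2 and COL1A1. MMP2, a gelatinase, stood at 2.08 and 2.13 FPKM in PR, 0.078 in CR and 0.170 in DR, and at 0 in the parental libraries (3.91 ± 0.39). COL1A1, the alpha-1 chain of type I collagen, stood at 6.51 and 6.26 FPKM in PR, 0.783 in CR and 1.41 in DR (2.45 ± 0.26). LAMB3, a laminin chain that was apart by size but not called, stood at 10.5 and 13.2 FPKM in PR, 3.16 in CR and 4.24 in DR (1.53 ± 0.18, adjusted p = 0.054). In these genes the PR libraries lay close together and well above the others. Other members had the opposite order: LAMB1, another laminin chain, stood at 175 and 163 FPKM in PR, 342 in CR and 268 in DR, and FBN1, encoding fibrillin, at 12.7 and 10.9 FPKM in PR, 20.8 in CR and 17.4 in DR. Over 50 tested collagens, laminins and matrix glycoproteins, 1 was called higher and 0 lower, 12 were higher and 7 lower at an unadjusted p under 0.05, and the median log2 fold change was 0.31.

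Among 36 tested senescence-associated proteases and matrix regulators, MMP2 and the growth factor EREG were called higher and 0 were called lower. EREG stood at 0.359 and 0.363 FPKM in PR, 0.013 in CR and 0.028 in DR. SERPINE2, a secreted inhibitor of serine proteases and one of the most abundant mRNAs of the list, stood at 1260 and 1733 FPKM in PR, 3333 in CR and 1948 in DR. PLAT, the tissue plasminogen activator that such inhibitors block, stood at 35.1 and 39.6 FPKM in PR, 97.3 in CR and 59.9 in DR. The counts at an unadjusted p under 0.05 were 9 higher and 5 lower, so the members moved in both directions, with a median log2 fold change of 0.50.

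The other named genes higher in PR cells had low levels in CR, DR and parental cells. SERPINB10, a leukocyte serpin, stood at 1.22 and 2.11 FPKM in PR, 0.0101 in CR and 0.0374 in DR (5.79 ± 0.60). NPC1L1, the intestinal cholesterol transporter, stood at 1.14 and 1.71 FPKM in PR, 0.051 in CR and 0.083 in DR (log2 fold change 4.0 ± 0.37), and it was the single called gene of 25 tested for cholesterol synthesis and uptake, a list with a median log2 fold change of -0.04. IL13RA2, a decoy receptor for interleukin-13, stood at 2.37 and 2.75 FPKM in PR and 0.276 and 0.279 in CR and DR (3.05 ± 0.29). TP53AIP1, a mitochondrial p53 target, stood at 1.43 and 1.85 FPKM in PR and 0.215 and 0.242 in CR and DR (2.62 ± 0.27). PRSS35, a protease-like gene, stood at 1.47 and 1.27 FPKM in PR and 0.0899 and 0.119 in CR and DR. The lncRNAs LOC101928032 and LINC02154 and the pseudogene LOC401218 had log2 fold changes between 3.22 and 3.49, and they were among the 12 largest of the called genes with at least 1 FPKM in both PR libraries. STAB1 had 0 reads in CR and DR and 0.129 and 0.127 FPKM in PR, at least 29.9-fold higher against a floor of 3 counts per library.

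The most abundant called gene was CRYAB, encoding the small heat shock protein alpha-B crystallin. It stood at 249 and 332 FPKM in PR, 93.1 in CR and 87.7 in DR, and between 9.01 and 11.2 in parental cells (1.62 ± 0.15). Survivors of every drug were thus above the parental range, and PR cells were the highest.

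The 45S precursor of ribosomal RNA was also higher in PR cells. The copy RNA45SN1 stood at 52.2 and 51.7 FPKM in PR, 8.52 in CR, 10.9 in DR and between 3.06 and 16.8 in parental cells (2.28 ± 0.18), and RNA45SN2 and RNA45SN3 gave log2 fold changes of 2.26 and 2.07. The copies are nearly identical, so reads cannot be assigned to 1 of them, and the 3 calls are 1 observation. Together they took 0.238% and 0.253% of reads in PR, 0.0432% in CR and 0.0534% in DR. The mature 18S and 28S entries of the same copies had log2 fold changes between -0.18 and 0.27, but the PR libraries were split. In each entry PR 1 was below CR and DR and PR 2 above both. RNA18SN1 stood at 49.7 and 167 FPKM in PR, 115 in CR and 79.8 in DR, and RNA28SN1 at 59.7 and 121 FPKM in PR, 68.4 in CR and 65.8 in DR. Ribosomal RNA lacks a poly(A) tail, and the part of the selection step in these values was not tested. Of 40 tested protein genes of ribosome biogenesis, 0 were called, 0 were higher and 1 was lower at an unadjusted p under 0.05.

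Of the called genes that were lower in PR cells, OAS1 makes the second messenger that activates RNase L, and it stood at 68.9 and 80.4 FPKM in PR, 165 in CR and 188 in DR. Its log2 fold change was -1.37 ± 0.15 (adjusted p = 0.0463), with parental cells between 76.1 and 138 FPKM. CKB, brain-type creatine kinase, stood at 63.7 and 70.8 FPKM in PR, 141 in CR and 164 in DR, with parental cells between 195 and 295. RTL10, a gene derived from a retrotransposon, stood at 3.87 and 4.38 FPKM in PR, 13.5 in CR and 12.4 in DR, with parental cells between 4.0 and 7.29. PR cells were thus near the parental level for OAS1 and RTL10 and below it for CKB. HOXA10-HOXA9 had 0 reads in PR and 0.403 and 0.442 FPKM in CR and DR, at least 24.7-fold lower against a floor of 3 counts per library, but it shares exons with HOXA9 and HOXA10.

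By size, MFGE8, CPA4, RPL22L1 and GP1BB were also lower. MFGE8, a secreted bridge between dying cells and phagocytes, stood at 170 and 163 FPKM in PR, 347 in CR and 358 in DR, and between 13.4 and 30.9 in parental cells. CPA4, a secreted carboxypeptidase, stood at 12.0 and 19.0 FPKM in PR, 39.5 in CR and 68.3 in DR. RPL22L1, a paralog of a ribosomal protein, stood at 14.1 and 11.7 FPKM in PR, 30.6 in CR and 40.9 in DR. GP1BB, at chr22:19723539-19724771, lies near RTL10 at chr22:19846146-19854874, and it stood at 0.215 and 0.496 FPKM in PR, 2.54 in CR and 3.14 in DR.

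OAS1 was the single called member of 58 tested interferon-stimulated genes. At an unadjusted p under 0.05, 7 were higher and 6 lower, with a median log2 fold change of 0.06. RSAD2, the antiviral protein viperin, stood at 0.550 and 0.529 FPKM in PR and 0.088 and 0.083 in CR and DR.

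Tubulin, the target of paclitaxel, was compared as a family, of which 0 members passed the adjusted p. Alpha- and beta-tubulin form the dimers from which microtubules are built, and the mRNA of most tubulins is known to be degraded when free dimers are abundant, through recognition of the first residues of the nascent chain. TUBB, the most widely expressed beta-tubulin, stood at 294 and 343 FPKM in PR, 90.8 in CR and 153 in DR, with parental cells between 371 and 640. TUBB4B stood at 244 and 337 FPKM in PR, 86.9 in CR and 138 in DR. TUBA1B, the most abundant alpha-tubulin, stood at 688 and 690 FPKM in PR, 253 in CR and 445 in DR, with parental cells between 1244 and 2137. In these genes CR was the lowest, DR the next and PR the nearest to the parental range, which PR 2 reached in TUBB4B (parental 274 to 480 FPKM).

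Over 14 tested tubulin genes, 12 were higher and 0 lower at an unadjusted p under 0.05, against 14.9% and 8.85% of all genes, but 0 passed the adjusted p in edgeR. Their median log2 fold change was 1.01. The log2 fold changes were 1.25 ± 0.26 for TUBB (adjusted p = 0.076), 0.89 ± 0.15 for TUBB6 (0.068), 1.08 ± 0.27 for TUBA1C (0.095), 0.74 ± 0.23 for TUBA1A (0.14) and 0.95 ± 0.35 for TUBB3 (0.18). The exceptions were TUBB4A, at 14.3 and 20.3 FPKM in PR, 18.4 in CR and 19.8 in DR, and TUBB8, below 0.1 FPKM in every library. The sum over the 18 tubulins of the list was 2012 and 2410 FPKM in PR, 774 in CR, 1292 in DR and between 2732 and 4455 in parental cells. DESeq2 called 9 tubulins higher and edgeR called 8 without DR. Without DR the median was 1.51, and without CR it was 0.84 with 0 calls.

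The reading frames are shown at their start because these codons encode the residues recognised in that control. Bases that differ between tubulins here need not change those residues. Each line gives the first 30 coding bases 5′ to 3′ from GENCODE 29 (GRCh38), with the first 4 codons in capitals. The start codons lie at chr6:30720507-30720509 for TUBB, chr9:137241361-137241363 for TUBB4B, chr6:3157461-3157463 for TUBB2A, chr19:6502210-6502212 for TUBB4A, chr12:49131298-49131300 for TUBA1B and chr2:219253856-219253858 for TUBA4A.
TUBB: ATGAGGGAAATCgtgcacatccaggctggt
TUBB4B: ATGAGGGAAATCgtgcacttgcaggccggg
TUBB2A: ATGCGCGAGATCgtgcacatccaggcgggc
TUBB4A: ATGCGGGAGATCgtgcacctgcaggccggc
TUBA1B: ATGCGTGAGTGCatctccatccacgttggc
TUBA4A: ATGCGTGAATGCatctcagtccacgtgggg

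TUBB and TUBB4B shared these 12 bases, and so did TUBA1A and TUBA1B. TUBB2A stood at 28.3 and 45.8 FPKM in PR, 10.4 in CR and 17.8 in DR. TUBA4A stood at 94.2 and 151 FPKM in PR, 33.6 in CR and 64.6 in DR.

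**Figure D3:**
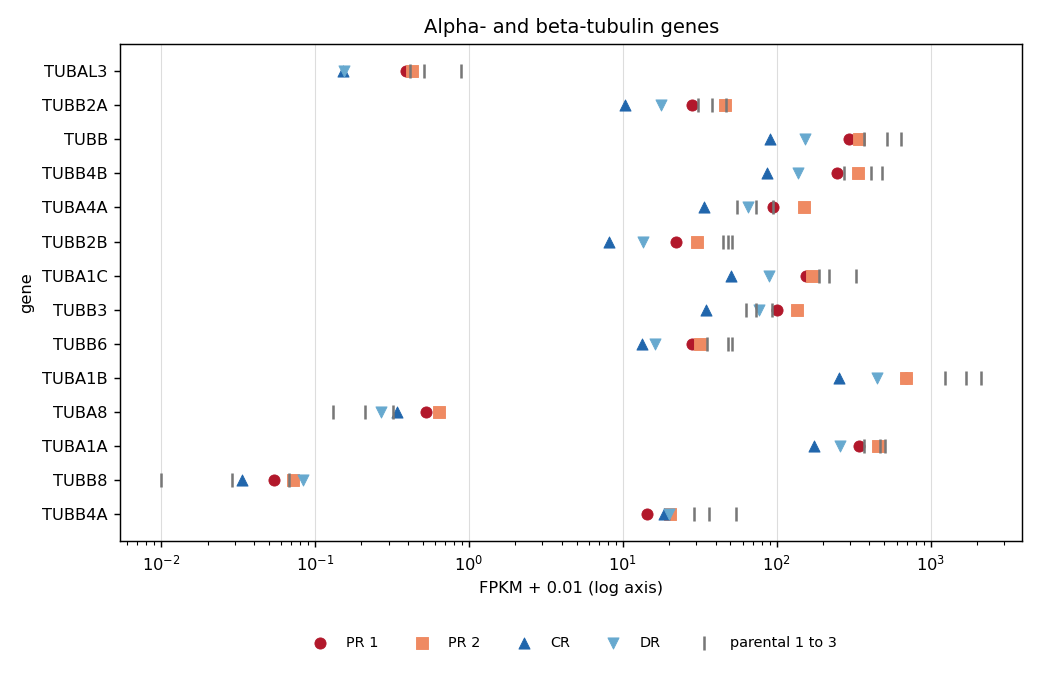
FPKM + 0.01 on a log axis for the 14 tested alpha- and beta-tubulin genes, with 1 point per library. In the abundant tubulins the order from left to right is CR, DR, PR, and in genes such as TUBA1B and TUBB2B the parental marks lie farthest right; the points of TUBB4A overlap.

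Proteins that act on microtubules did not follow the tubulins. Of 38 tested microtubule regulators, 0 were called, 4 were higher and 5 lower at an unadjusted p under 0.05, and the median log2 fold change was 0.01. MAP2 stood at 2.76 and 2.26 FPKM in PR, 1.18 in CR and 1.24 in DR, whereas MAPT, encoding tau, stood at 1.27 and 1.08 FPKM in PR, 2.18 in CR and 1.94 in DR. These neuronal microtubule-associated proteins thus had opposite directions, at adjusted p = 0.073 each.

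Targets of p53 were above parental levels after all 3 drugs in most cases, and no member of the p53 list below passed the adjusted p. CDKN1A, the cell cycle inhibitor, stood at 343 and 498 FPKM in PR, 654 in CR and 404 in DR, against 20.7 to 33.0 in parental cells, so that PR and DR overlapped. MDM2, which degrades p53, stood at 71.1 and 65.1 FPKM in PR, 47.6 in CR and 36.9 in DR (0.54 ± 0.21, adjusted p = 0.20). FAS stood at 14.8 and 12.5 FPKM in PR, 8.56 in CR and 8.90 in DR (0.57 ± 0.16, adjusted p = 0.12). GDF15, a secreted stress factor, stood at 381 and 643 FPKM in PR, 273 in CR and 233 in DR. Each of these 4 genes was above the parental range in all 4 libraries.

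Of 63 tested p53 targets, 0 were called and the median log2 fold change was 0.13. At an unadjusted p under 0.05, 13 (20.6%) were higher and 2 (3.17%) lower, against 14.9% and 8.85% of all genes. Both PR libraries were above the parental range in 53 members, and CR and DR in 51. For counts against the parental range, here and below, the share over all genes tested is not given. Outside the list, the p53 target TP53AIP1 was called higher in PR cells, as given above, and the p53-induced lncRNA PURPL was apart by size, at 10.1 and 10.8 FPKM in PR, 2.94 in CR and 3.36 in DR. TNFRSF10D, a decoy receptor for the death ligand TRAIL, was at the lowest p of the list, with 24.9 and 28.5 FPKM in PR, 12.8 in CR and 11.6 in DR. The p53-induced repair genes gave log2 fold changes of -0.13 ± 0.13 for XPC, -0.18 for DDB2, 0.04 for POLH and 0.12 for RRM2B. Among 31 apoptosis regulators 0 were called, 6 were higher and 2 lower at an unadjusted p under 0.05.

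No tested gene of the repair lists was called. Over 26 tested genes of nucleotide excision repair, which removes cisplatin adducts, 0 were called and the median log2 fold change was -0.14. At an unadjusted p under 0.05, 2 (7.69%) were higher and 4 (15.4%) lower, against 14.9% and 8.85% of all genes. UVSSA stood at 3.32 and 3.05 FPKM in PR and 1.45 and 1.60 in CR and DR, and GTF2H3, a subunit of the repair helicase complex TFIIH, at 8.59 and 8.43 FPKM in PR, 12.3 in CR and 11.5 in DR. Over 46 genes of the Fanconi pathway and homologous recombination, 0 were called, 0 were higher and 2 (4.35%) lower at that p, with a median of -0.04. The PR libraries lay on different sides here, with PR 1 above CR and DR in 34 of the 46 and PR 2 below both in 30.

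Doxorubicin's target and the enzymes that reduce it were compared next. TOP2A stood at 15.3 FPKM in PR 1, 1.54 in PR 2, 3.21 in CR and 2.99 in DR, and TOP2B at 13.4, 7.83, 6.96 and 8.57 FPKM. TOP1 stood at 32.4 and 26.3 FPKM in PR, 22.0 in CR and 28.4 in DR. PR 1 alone was high in TOP2A, and without it the log2 fold change of TOP2A was -1.21 in place of 1.32. The values of 2 aldo-keto reductases were lower in PR cells without passing the adjusted p, with AKR1A1 at 40.5 and 46.1 FPKM in PR, 75.8 in CR and 85.2 in DR (adjusted p = 0.058) and AKR1B10 at 733 and 752 FPKM in PR, 1236 in CR and 1461 in DR (0.073). NQO1, which reduces quinones, stood at 799 and 1090 FPKM in PR, 1480 in CR and 1790 in DR. AKR1B1, aldose reductase of the same family, had the opposite order, with 547 and 656 FPKM in PR, 203 in CR and 358 in DR. Of the 18 genes tested, 0 were called, 2 were higher and 3 lower at an unadjusted p under 0.05.

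Among 33 tested transporters and genes of cisplatin handling, 0 were called, 6 were higher and 8 lower at an unadjusted p under 0.05, with a median log2 fold change of -0.06. ABCB1, the efflux pump P-glycoprotein that exports paclitaxel and doxorubicin, stood at 0.892 and 0.332 FPKM in PR, 0.066 in CR and 0.196 in DR (2.1 ± 0.67, adjusted p = 0.14), below 1 FPKM throughout. ABCC1 stood at 53.7 and 48.9 FPKM in PR, 30.4 in CR and 40.2 in DR, and ABCG2 at 15.3 and 14.5 FPKM in PR, 12.7 in CR and 15.2 in DR. GSTP1, the glutathione transferase, stood at 355 and 400 FPKM in PR, 551 in CR and 601 in DR. GCLC, the catalytic subunit of the first enzyme of glutathione synthesis, had the opposite order, with 14.6 and 14.1 FPKM in PR, 8.48 in CR and 10.0 in DR. GCLM, its regulatory subunit, stood at 16.5 and 13.4 FPKM in PR, 8.67 in CR and 10.6 in DR.

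Genes of cell division separated PR 1, the library with another form of label, from the 3 other libraries. PR 1 was above CR and DR in 71 of 72 tested G2/M genes, whereas PR 2 was above both in 11 and below both in 49. Within PR cells, 52 of the 72 were more than 2-fold higher in PR 1, against 0 that were lower. PTTG1, the inhibitor of separase, stood at 29.4 FPKM in PR 1, 11.0 in PR 2, 7.04 in CR and 9.18 in DR, and ASPM, a spindle pole protein, at 1.84, 0.315, 0.217 and 0.239 FPKM. The list had a median log2 fold change of 0.80, with 0 members called, 5 higher and 0 lower at an unadjusted p under 0.05, and the median was -0.54 without PR 1. In 71 of the 72 genes both groups were below the parental range. Every comparison of PR with CR and DR holds this difference between the PR libraries, and its part in the other results was not tested.

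DNA replication genes showed the same split. PR 1 was above CR and DR in 38 of 59 tested genes and PR 2 below both in 49, with 0 members called, 0 higher and 0 lower at an unadjusted p under 0.05 and a median log2 fold change of -0.16.

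**Figure D4:**
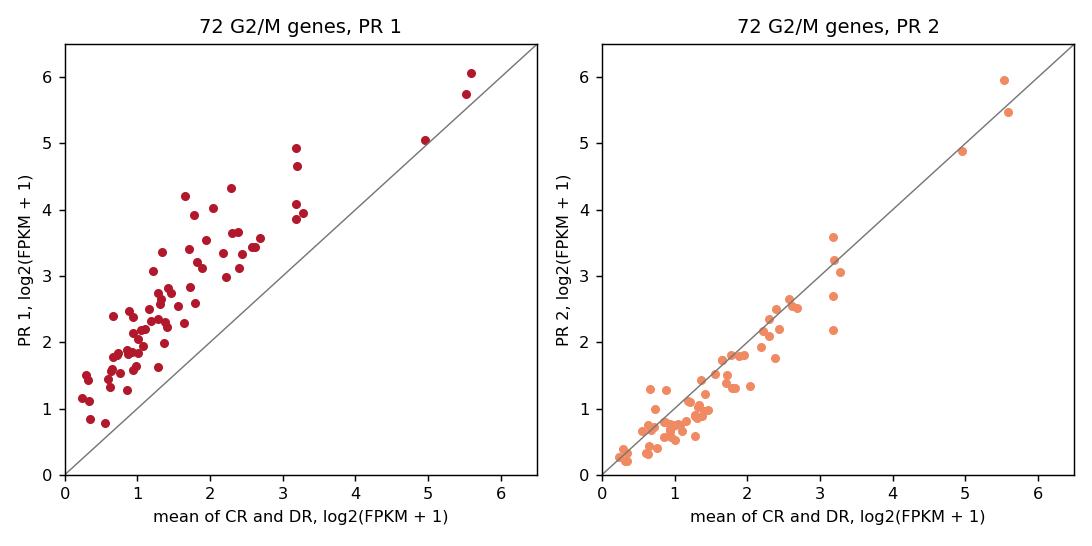
The 72 tested G2/M genes, with the mean of CR and DR on the horizontal axis and PR 1 (left) or PR 2 (right) on the vertical axis, all as log2(FPKM + 1); the line marks equal values. All 72 points lie above the line in PR 1, and 19 of 72 do in PR 2.

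Genes of the integrated stress response and the endoplasmic reticulum were the list with the lowest median, at -0.39 over 38 tested members. At an unadjusted p under 0.05, 16 were lower and 4 higher, against 8.85% and 14.9% of all genes, and 0 were called. PSAT1, which makes serine, stood at 47.1 and 46.0 FPKM in PR, 82.2 in CR and 76.7 in DR, and AARS1, alanyl-tRNA synthetase, at 32.7 and 37.4 FPKM in PR, 54.6 in CR and 51.6 in DR. The chaperone HSP90B1 stood at 272 and 221 FPKM in PR and 414 in both CR and DR. ATF3, a stress-induced transcription factor, was higher in PR, with 15.7 and 43.8 FPKM against 10.2 in CR and 8.63 in DR. For PSAT1 and AARS1 parental cells were above all 4 libraries, with PSAT1 between 118 and 166 FPKM.

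In the remaining lists 0 members were called. Among 32 tested epithelial and mesenchymal genes, 8 were higher and 2 lower at an unadjusted p under 0.05, with a median log2 fold change of 0.35. SNAI2, a repressor of epithelial genes, stood at 4.93 and 5.77 FPKM in PR, 2.42 in CR and 2.86 in DR, while KRT19 stood at 236 and 385 FPKM in PR, 738 in CR and 588 in DR. Among 42 targets of SRF and YAP in the actin cytoskeleton, 4 were higher and 3 lower at that p, with CCN1 at 75.2 and 97.9 FPKM in PR, 157 in CR and 143 in DR. Among 35 genes of lysosome and autophagy 4 were higher and 6 lower, and among 25 histone genes, found by their older symbols, 1 was higher and 3 lower, with the linker histone H1-2 at 73.7 and 120 FPKM in PR, 157 in CR and 158 in DR. Across 15 alternative settings the number of members called by any tool reached 15 for the stress response and endoplasmic reticulum list, 15 for collagens and matrix, 6 for p53 targets, 3 for G2/M genes and 0 for DNA replication.

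**Figure D5:**
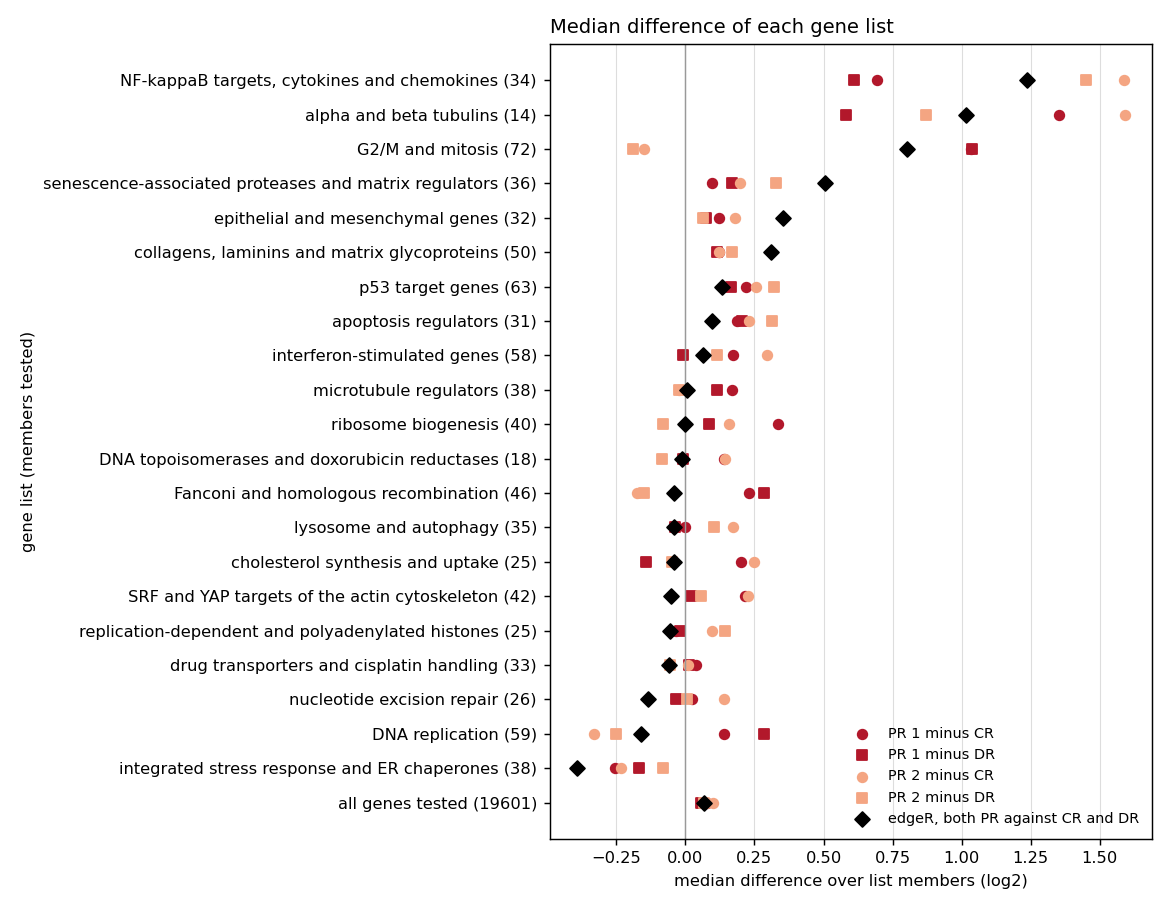
Median difference over the tested members of each gene list, with the number of members in brackets. Diamonds are edgeR log2 fold changes of both PR libraries against CR and DR, and the coloured points are single library pairs on the log2(FPKM + 1) scale, where a list of low genes lies nearer to 0. The points of a list agree in sign for the NF-kappaB list and the tubulins. They also agree for other lists, such as p53 targets and the stress response, and for all genes tested. Those of G2/M and mitosis split between PR 1, near 1.04, and PR 2, below 0.

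Set beside parental cells, most genes that separated the drugs lay outside the parental range in every survivor. The share of all genes tested that did so is not given, so these counts describe the separating genes only. Of the 44 called genes higher in PR cells, all had both PR libraries above the range of the 3 parental libraries, and CR and DR were above it too in 28, within it in 15 and below it in 1. Of the 52 genes higher by size, CR and DR were above the parental range in 36, within it in 11 and below it in 5. RAB38 was among these 5, at 4.32 and 7.47 FPKM in PR, 0.937 in CR, 1.09 in DR and between 1.54 and 3.61 in parental cells.

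No gene at the centre of the study passed the adjusted p. SEZ6L2 and STC1 were higher in both PR libraries than in CR and DR, and the CHPF values overlapped. SEZ6L2, a neuronal surface protein, stood at 26.9 and 31.3 FPKM in PR, 20.3 in CR and 18.2 in DR, against 2.1 to 4.54 in parental cells (0.44 ± 0.15, adjusted p = 0.16). STC1, a secreted glycoprotein, stood at 21.5 and 21.8 FPKM in PR, 9.21 in CR and 17.7 in DR (0.55 ± 0.28, adjusted p = 0.30), and CHPF, a chondroitin synthase, at 36.3 and 42.1 FPKM in PR, 41.9 in CR and 48.1 in DR (adjusted p = 0.21). Of 7 tested study genes, 0 were called, 1 was higher and 1 lower at an unadjusted p under 0.05.

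Gene length was examined because drugs that block transcription are known to spare short genes. Over 8 classes of genomic length, the median log2 fold change of protein-coding genes lay between -0.13 for 567 genes longer than 320 kb and 0.06 for 2026 genes between 80 and 160 kb, and it was -0.04 for 1401 genes under 5 kb. These medians are small beside those of the NF-kappaB and tubulin lists.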

How the data were processed

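The authors deposited, per gene and library, a whole-number read count, an FPKM and a TPM, and the labels name TruSeq poly(A) libraries, bcl2fastq 1.8.4, Trimmomatic, HISAT2 2.1.0, StringTie 2.1.3b and GRCh38. The handling of strand and shared reads is not given in the sources used here, and counts of 2 were more frequent than counts of 1 in every library, so a read may not be 1 independent fragment. The deposited FPKM values, scaled by the authors for length and depth, were used for levels, and the deposited TPM values were not used. Counts of the 4 libraries were fitted with edgeR 4.0.16 in R 4.3.3 (filterByExpr with a minimum count of 10, TMM factors, glmQLFit, glmQLFTest), with Benjamini-Hochberg adjustment over all genes tested and a threshold of 0.05. The SE is the log2 fold change divided by the square root of F. Tested on simulated data with 200 changed genes, edgeR recovered 52.5%, 94.5% and 100% of 2-, 4- and 8-fold changes for this comparison. The simulated libraries of a side shared a common mean, and their spread was set by expression level. They thus held no difference between PR 1 and PR 2 or between CR and DR. In the real data IL1A, 9.34-fold higher in mean FPKM, was not called (adjusted p = 0.068), so these shares are not the recovery in the real libraries.

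The comparison, the 26 gene lists and the rule for naming genes were chosen with earlier results of these data known, and lists are described by counts and medians with no test. The rule named the 12 called genes with the largest fold change in each direction with at least 1 FPKM in both libraries of the higher group, up to 4 called members of each list, and fixed genes of tubulin, topoisomerase, transport, p53 and the study. The call by size was added after seeing the data, and its genes and other members printed were chosen after their values were seen. The lists of alveolar and airway, leukocyte and endothelial and fibroblast markers had 0 called members of 2, 5 and 6 tested, and the epithelial list 0 of 5. Positions and promoters come from RefSeq on GRCh38.p14 and coding starts from GENCODE 29. Alternatives were other scalings, filters, tools, pseudocounts, fits with the parental libraries, and each library left out. pandas 2.3.3 and matplotlib 3.10.9 were used. Some genes of the lists are not reported here.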

Additional observations from a re-analysis of the deposited data

How the results depend on the processing

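The number of genes called, 48 in the comparison as reported, depended on each setting tried apart from leaving out the ribosomal RNA genes (44). It was 146 with RLE size factors, 318 with upper-quartile factors, 1227 with no filter on low counts, 160 with a filter on FPKM, 1908 with DESeq2, 143 and 186 with limma on log2(FPKM + 1) and log2(FPKM + 0.1), and 0 among protein-coding genes alone (3219 at an unadjusted p under 0.05). With the 3 parental libraries in the fit it was 0 in 4 groups and 0 in 3 groups (2678 and 2479 at an unadjusted p under 0.05, lowest adjusted p 0.0908 and 0.113). Leaving out 1 library gave between 0 and 934 calls, namely 1 without PR 1, 0 without PR 2 (4405 at an unadjusted p under 0.05), 286 without CR and 934 without DR, and the fit without PR 1, whose label has another form than the others, is also the comparison within 1 form of label. The 48 genes were all called again with RLE and upper-quartile factors, no filter, DESeq2, and without CR or DR, 27 of them were called under the FPKM filter and limma, and 0 of them in the settings with 0 or 1 call. A lone library is assumed in these fits to vary like the other group. The share of calls that were higher in PR cells was 91.7% as reported, 84.9% and 88.4% under the other scalings, 76.0% with no filter and 53.1% with DESeq2. The causes were not tested.

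The call by size, 58 genes as reported, gave 715 with a pseudocount of 0.1, 59 after upper-quartile scaling, and between 86 and 210 with 1 library left out (210 without PR 1, 154 without PR 2, 86 without CR and 158 without DR), where fewer library pairs have to differ. With a pseudocount of 0.1 the genes more than 2-fold apart numbered 1380 for the PR libraries, 783 for CR and DR, 2796 for PR 1 and CR, 2175 for PR 1 and DR, 3577 for PR 2 and CR, and 3042 for PR 2 and DR, since low genes then count. The difference between the longest and shortest genes was -0.087, and -0.0518 on the log2(FPKM + 1) scale.

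Of the named genes, none of those called changed sign in any alternative. Signs turned for 7 named genes that were not called, among them TOP2A, at 1.32 as reported. With 1 library left out the log2 fold change ranged from -1.21 (without PR 1) to 2.11 for TOP2A, -0.16 (without PR 1) to 0.649 for TOP2B, -0.131 (without PR 1; -0.0646 without CR) to 0.241 for TOP1, -0.14 to 0.0106 (without DR) for ABCG2, -0.553 to 0.0618 (without PR 1) for DDB2, -0.207 (without PR 2; -0.0547 without DR) to 0.184 for POLH and -0.223 (without PR 1) to 0.32 for RRM2B. It was 0.104 and 0.098 for ABCG2 by limma with a pseudocount of 0.1 and 1, and -0.00395 for POLH in the fit of 4 groups. No paired analysis was possible because the CR and DR libraries carry no replicate number that pairs them with the PR libraries. With 2 libraries on each side, the number of libraries limits the precision. Differences under 1 FPKM can rest on few reads, such as 6 in CR and 13 in DR for EREG.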

Other observations

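Of the 52 genes higher in PR cells by size, 5 not described above are given here, chosen after their values were seen, and none of them passed the adjusted p. CYP1A1, a target of the aryl hydrocarbon receptor, stood at 5.49 and 7.92 FPKM in PR, 0.474 in CR and 1.14 in DR, with parental cells at most 0.013 FPKM (adjusted p = 0.059). CYP1B1, a target of the same receptor, stood at 330 and 262 FPKM in PR, 117 in CR and 97.7 in DR, with parental cells between 51.6 and 54.8. HMOX1, which breaks down heme, stood at 32.9 and 48.1 FPKM in PR, 6.91 in CR and 11.4 in DR, so that the parental libraries, between 10.7 and 32.1 FPKM, lay below both PR libraries and above CR. PI3, the elastase inhibitor elafin, stood at 28.2 and 27.2 FPKM in PR, 1.21 in CR and 5.41 in DR, and RRAD, a small GTPase, at 6.32 and 11.6 FPKM in PR, 1.47 in CR and 1.36 in DR.

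The classes of transcript differed in their share of higher values. The median log2 fold change was 0.46 over 3101 lncRNAs, 0.26 over 520 transcribed pseudogenes and 0.01 over 14680 protein-coding genes, and 25.5% of the lncRNAs and 12.6% of the protein-coding genes were higher at an unadjusted p under 0.05. The share was 6.06% of 165 snoRNAs, 5.56% of 54 miRNAs and 9.09% of 22 tRNAs. As a share of reads, lncRNAs took 1.29% and 1.37% in PR 1 and PR 2, 1.30% in CR and 1.07% in DR, so PR 1 was not above CR. A gene of few reads could enter the test through its reads in 1 group alone, and the part of this in the lncRNA share was not tested. On the log2(FPKM + 1) scale the lncRNA median was 0.06 for both pairs of PR 1 and 0.13 for both pairs of PR 2, and the protein-coding median was 0.08 and 0.05 for PR 1 against CR and DR and 0.09 and 0.05 for PR 2. MIR3189, at chr19:18386562-18386634, lies within GDF15 at chr19:18386158-18389176, so its reads cannot be told apart from those of GDF15, whose log2 fold change was 0.86 against 1.75 for MIR3189.

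CR and DR, taken as 1 side of the comparison, also differed from each other. MMP1, interstitial collagenase, stood at 182 FPKM in CR and 45.2 in DR, and CLCA2, a p53-induced gene, at 0.842 in CR and 10.9 in DR. With 1 library of each drug, these differences have no replicate check.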
